A study of Mus musculus with 9 samples.

Results

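The nuclear-encoded subunits of respiratory complexes II, III, IV and V and the electron carrier cytochrome c were followed in mouse hearts that lack functional RORalpha and in wild-type hearts. Members were all genes on the array with a symbol for a complex II subunit (Sdha to Sdhd), a complex III subunit (Uqcr genes and Cyc1), a subunit of complex IV (Cox4 to Cox8 genes), a complex V subunit (Atp5 genes) or cytochrome c (Cycs). Of 31758 genes on the array, 49 met this rule, with 60 probes between them: 4 in complex II, 9 in complex III, 18 in complex IV, 17 in complex V and Cycs. Of the 31758, 19096 had a gene symbol, and each accession without a symbol was counted as a gene of its own. Such accessions are included in the shares and medians of all genes below. Each member is represented by the probe that was brightest on average. A total of 47 members were kept for testing, and all 47 were well above background on all 9 arrays. The 2 others, Cox7b2 and Cox8c, were too dim. The hearts came from 4 RORasg/sg mice and 5 wild-type (WT) mice. RORasg/sg mice are homozygous for staggerer, a deletion inside Rora, the gene of RORalpha, carried in every cell of the body. All mice were untreated C57BL/6 males of 3 to 4 months. Each whole heart was measured once on a single-colour Agilent array, so all cell types of the heart contribute to each value. Values below are log2 of the processed signal minus the 75th percentile of the same array, and a log2 difference is RORasg/sg minus WT. The order of hearts is given on this scale unless deposited signal is named.

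The respiratory chain of the inner mitochondrial membrane passes electrons from reduced cofactors to oxygen and pumps protons, and ATP synthase uses the proton gradient to make ATP. Complex II (succinate dehydrogenase) is also an enzyme of the citrate cycle and has no subunit encoded in mitochondrial DNA. Complex III passes electrons to cytochrome c, complex IV (cytochrome c oxidase) passes them on to oxygen, and complex V is ATP synthase. The heart depends on this chain for most of its ATP, and several complex IV subunits have a form made mainly in heart and skeletal muscle beside a form made in most tissues.

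Promoters from RefSeq (build GRCm38.p6) were available for 37 of the 49 members. The 250 bases before the start of 6 genes named in the results are printed. Sdhb had the lowest log2 difference of the 47 members, and Cox7b is a complex IV subunit with a positive one. Both carry the letters AGGTCA, the core that RORalpha is known to bind. Cox6a1 is the widely expressed form opposite the heart form Cox6a2. Cox8b and Cox7a1 are heart and muscle forms, and Cox7a2 is the widely expressed form opposite Cox7a1. Capitals mark AGGTCA in Sdhb and Cox7b, the NRF-1 motif (GCGC, any 2 bases, GCGC) and the ETS motif CCGGAAG (on the reverse strand) in Cox6a1, and the muscle E-box CAGCTG in Cox8b.
Sdhb, chr4:140961021-140961270, plus strand: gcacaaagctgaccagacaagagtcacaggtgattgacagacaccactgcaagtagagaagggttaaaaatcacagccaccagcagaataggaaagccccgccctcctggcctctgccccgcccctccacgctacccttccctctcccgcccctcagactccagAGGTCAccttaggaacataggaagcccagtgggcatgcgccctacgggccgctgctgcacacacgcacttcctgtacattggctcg
Cox7b, chrX:106015450-106015699, plus strand: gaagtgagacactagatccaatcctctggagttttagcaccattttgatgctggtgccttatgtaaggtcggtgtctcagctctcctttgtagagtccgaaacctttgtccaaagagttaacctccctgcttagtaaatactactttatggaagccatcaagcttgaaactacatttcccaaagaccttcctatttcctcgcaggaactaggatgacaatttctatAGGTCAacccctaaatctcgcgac
Cox6a1, chr5:115348959-115349208, minus strand: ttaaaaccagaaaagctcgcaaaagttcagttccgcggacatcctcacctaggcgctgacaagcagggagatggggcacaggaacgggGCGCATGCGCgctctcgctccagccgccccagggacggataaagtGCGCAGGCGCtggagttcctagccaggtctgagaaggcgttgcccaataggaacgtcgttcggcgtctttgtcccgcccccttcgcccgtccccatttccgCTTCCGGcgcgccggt
Cox8b, chr7:140900447-140900696, minus strand: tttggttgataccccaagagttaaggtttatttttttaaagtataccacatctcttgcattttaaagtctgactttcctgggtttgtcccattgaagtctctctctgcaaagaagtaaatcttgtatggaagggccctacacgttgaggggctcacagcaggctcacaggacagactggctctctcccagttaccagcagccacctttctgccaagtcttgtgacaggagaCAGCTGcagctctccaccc
Cox7a1, chr7:30183921-30184170, plus strand: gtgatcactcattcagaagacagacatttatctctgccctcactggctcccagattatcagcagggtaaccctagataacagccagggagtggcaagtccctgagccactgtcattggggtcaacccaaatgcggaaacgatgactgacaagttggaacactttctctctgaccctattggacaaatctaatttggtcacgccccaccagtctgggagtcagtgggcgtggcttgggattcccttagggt
Cox7a2, chr9:79759854-79760103, minus strand: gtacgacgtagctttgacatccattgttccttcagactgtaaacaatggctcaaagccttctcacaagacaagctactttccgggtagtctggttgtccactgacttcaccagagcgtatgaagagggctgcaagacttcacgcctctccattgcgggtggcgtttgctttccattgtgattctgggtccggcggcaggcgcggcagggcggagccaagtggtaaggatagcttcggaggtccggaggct
With both strands searched over the whole promoter windows, the NRF-1 motif was in 7 of the 37 member genes (18.9%) against 4.98% of all 32851 promoters. CCGGAAG was in 9 (24.3%) against 6.91%, and AGGTCA in 6 (16.2%) against 14%. TATAAA was in 3 (8.11%) against 12.4%, and CAGCTG in 2 (5.41%, Atp5b and Cox8b) against 13%. None of these 5 motifs was found in the windows of Cox7a1 or Cox7a2. The printed stretches of the muscle forms hold few CpG dinucleotides, 1 in Cox8b and 4 in Cox7a1, while those of Cox6a1 and Cox7a2 hold 26 and 14. A match of letters is a description and does not show that a factor binds there.

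The arrays differed in brightness, and brightness was not balanced between the groups. Its part in the results was not tested apart from the alternatives given below. The 75th percentile lay at 773, 292, 391 and 264 signal units in RORasg/sg hearts 1 to 4, and at 684, 643, 631, 436 and 547 in WT hearts 1 to 5. RORasg/sg 2, 3 and 4 and WT 4 (under 500) are called the dimmer arrays and the other 5 the brighter arrays. Rora itself was lower in every RORasg/sg heart (0.083, -2.71, -1.01 and -1.99) than in every WT heart (2.87, 3.29, 2.88, 1.51 and 3.06). Its log2 difference of -4.13 had a limma adjusted p of 0.224, and whether its probe lies in the deleted part is not known. The tissue label was checked with 8 cardiomyocyte markers (Myh6, Tnnt2, Tnni3, Actc1, Myl2, Ryr2, Ttn and Pln), all of them kept for testing. Their median level per heart ran from 4.17 to 6.24 in RORasg/sg and from 5.89 to 6.36 in WT. All 8 had a lower mean in RORasg/sg hearts (median log2 difference -1.14), and 0 passed the threshold. Of the markers of other heart cells, 6 endothelial genes had a median log2 difference of -1.25 (4 of 6 lower), 7 fibroblast genes 0.42 (2 of 7 lower), 6 macrophage genes 0.19 (3 of 6 lower) and 6 smooth muscle and pericyte genes -0.57 (3 of 6 lower). The endothelial median level ran from -0.91 to 2.01 in RORasg/sg hearts and from 1.52 to 2.17 in WT hearts. Of 4 atrial genes 1 was lower (median 0.75), of 7 skeletal muscle genes 5 (-0.046), of 6 adipocyte genes 1 (0.15) and of 3 tested erythroid genes 2 (-0.62). None of these passed the threshold, and their part in the members' values was not tested.

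None of the 47 members differed between RORasg/sg and WT hearts past the threshold (limma adjusted p of 0.05; lowest adjusted p 0.375), against 0.0036% of the 27775 genes tested. Without adjustment, 2 members had a p under 0.05 (Sdhb lower and Cox8a higher), or 4.26% of the members against 11.6% of all genes. The median log2 difference of the members was 0.34, against 0.41 over all genes, and 25 members lay below that median of all genes (50% of all genes do) and 22 above it. By sign, 31 members had a higher mean in RORasg/sg hearts and 16 a lower one, where 33.4% of all genes were lower. In the deposited signals without scaling the split was the opposite, 16 higher and 31 lower, and the median of all genes was -0.17, so each value is to be read against the shift of all genes. By complex, the median was -1.45 in complex II, 0.36 in complex III, 0.54 in complex IV and 0.26 in complex V, and Cycs had 0.50. Without scaling these became -2.03, -0.21, -0.037, -0.25 and -0.073, so complex II kept its sign and the others turned, as did complexes III (-0.052) and V (-0.11) with quantile normalization.

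**Figure D1:**
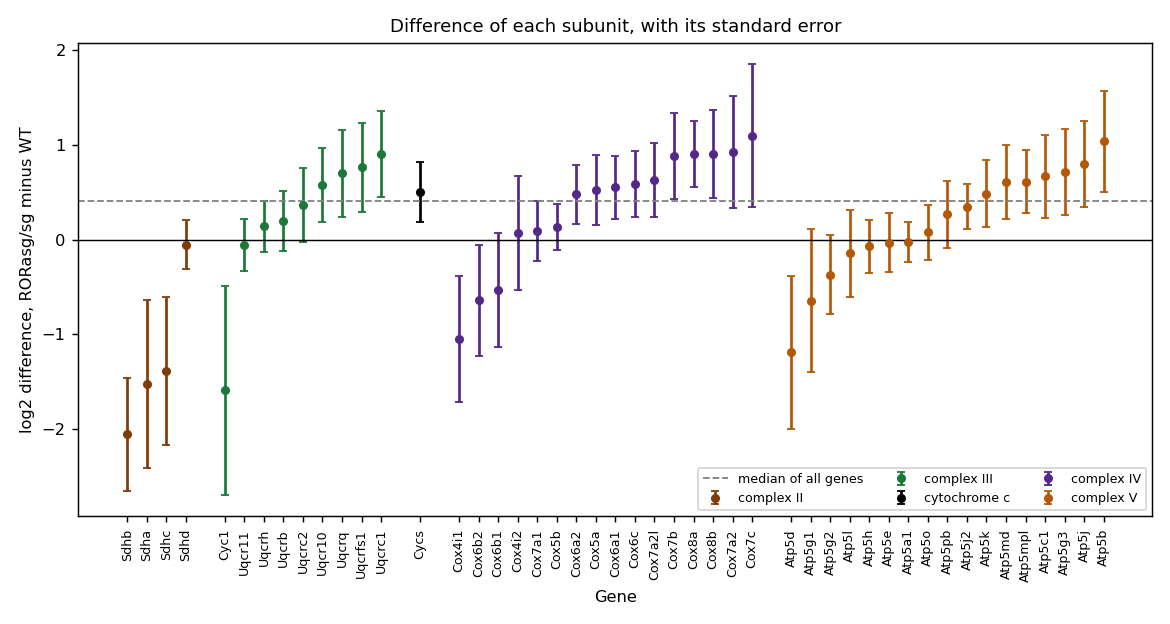
Log2 difference of each of the 47 tested members, RORasg/sg minus WT, with its standard error, grouped by complex along the horizontal axis. The dashed line is the median of all genes (0.41). The 4 complex II subunits lie below it, and the differences of complex III, IV and V subunits spread on both sides, from -1.59 for Cyc1 to 1.09 for Cox7c.

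The hearts of one group were less alike than the group means. Set against the mean of the 4 brighter WT hearts, the median deviation of the members was -0.27, 0.93, 0.58 and 0.45 in RORasg/sg hearts 1 to 4 and 0.84 in WT 4. Over all genes the same deviations were -0.34, 0.60, 0.71 and 0.81 in the RORasg/sg hearts and 0.28 in WT 4. WT 4 stood with RORasg/sg 2, 3 and 4, and RORasg/sg 1 stood on the other side of the 4 brighter WT hearts. The spread of the deviations across members (SD) came to 0.63, 1.06, 1.44 and 1.80 in the 4 RORasg/sg hearts, with 1.08 in WT 4 and 0.13 to 0.20 in the other WT hearts. For 24 of the 47 members, RORasg/sg 2, 3 and 4 and WT 4 all lay above the range of the 4 brighter WT hearts and RORasg/sg 1 lay below it. That pattern was chosen after the values were seen, and its share over all genes was not counted, so it is not shown to be particular to the members. Of the 46 members measured on every array, RORasg/sg 2 was the highest of the 9 hearts for 24 (52.2%, against 26.4% of all genes measured on every array) and RORasg/sg 1 the lowest for 24 (52.2%, against 36.3%). The part of array brightness in the differences between the groups was not tested apart from the alternatives given here.

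**Figure D2:**
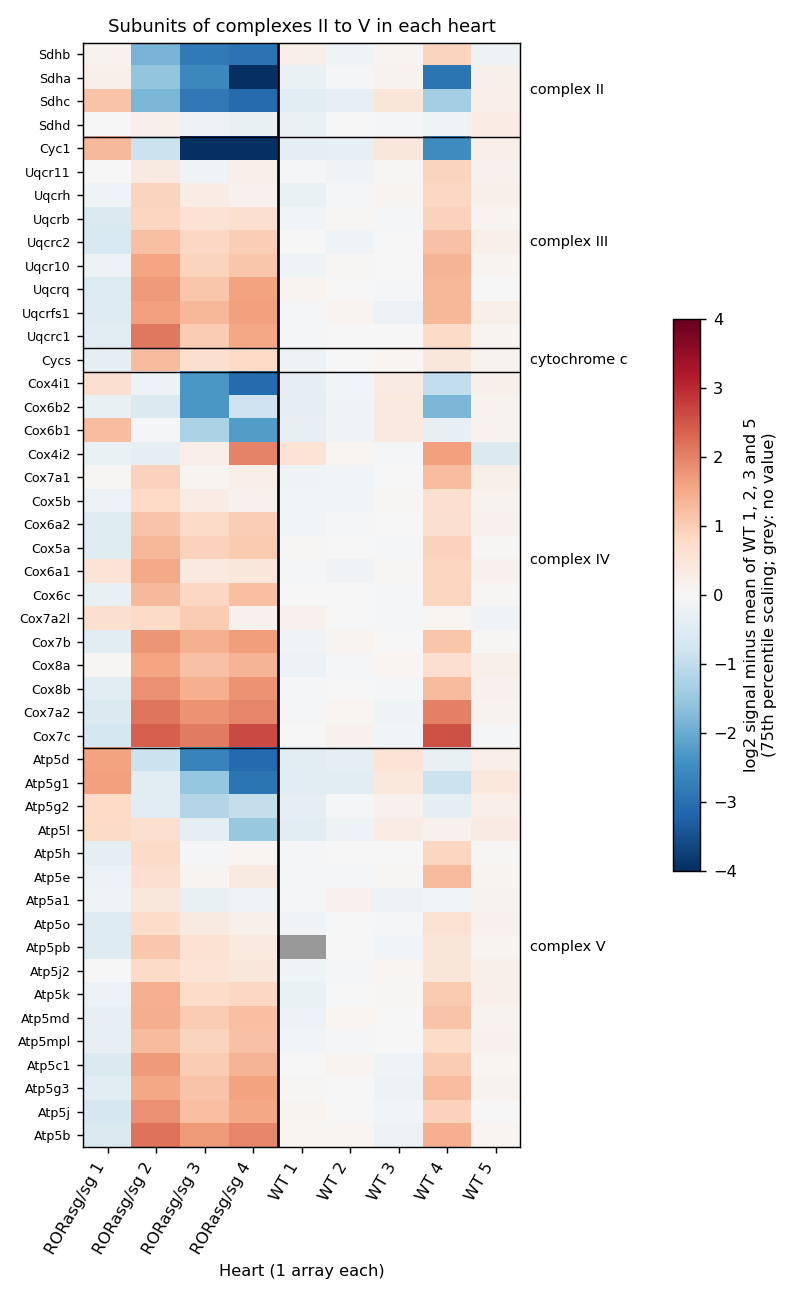
Signal of each tested member in each heart as log2 deviation from the mean of WT 1, 2, 3 and 5 (colour scale from -4 to 4; grey, no value), RORasg/sg hearts left of WT hearts. RORasg/sg 2, 3 and 4 and WT 4 share most of their red and blue rows, and RORasg/sg 1 shows the opposite colour in many of them.

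Complex II had the lowest median of the complexes in these arrays. All 4 subunits had a lower mean in RORasg/sg hearts, and their differences ran from -2.05 to -0.055. Sdhb carries the iron-sulphur clusters that pass electrons from the flavoprotein Sdha towards ubiquinone. It read 4.18, 2.17, 1.22 and 1.09 in RORasg/sg hearts and 4.29, 3.87, 4.17, 4.93 and 3.84 in WT hearts. In deposited signal this is 14020, 1317, 911 and 561 units in RORasg/sg and 13380, 9408, 11330, 13270 and 7848 in WT. RORasg/sg 2, 3 and 4 lay below every WT heart on both scales. RORasg/sg 1 lay inside the WT range after scaling and above every WT heart in deposited signal. The mean was 2.17 ± 1.43 in RORasg/sg (SD, n = 4) and 4.22 ± 0.44 in WT (SD, n = 5), 4.15-fold lower in RORasg/sg (log2 difference -2.05, SE 0.594, limma adjusted p = 0.375). After scaling, WT 4, the dimmer WT array, was the highest of the 9 hearts for Sdhb, but not in deposited signal. Within slide 1 the difference was -0.90 and within slide 2 it was -3.39. In bulk tissue, fewer cells of a type and less RNA per cell cannot be told apart.

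The other 3 subunits of complex II split in the same data. Sdhc, a membrane anchor, read 4.81, 1.84, 0.81 and 0.61 in RORasg/sg hearts and 3.26, 3.34, 4.16, 2.32 and 3.94 in WT hearts (log2 difference -1.39, SE 0.777, limma adjusted p = 0.418). RORasg/sg 1 was above all WT hearts, and RORasg/sg 2, 3 and 4 were below all of them, with 0.024 within slide 1 and -2.53 within slide 2. Sdha, which binds FAD and succinate and was chosen for naming after its values were seen, read 4.52, 2.71, 1.72 and -0.13 in RORasg/sg and 4.03, 4.23, 4.44, 1.40 and 4.52 in WT (-1.52, SE 0.885). Here WT 4 lay between RORasg/sg 3 and 4, and the groups overlapped. Sdhd, the other membrane anchor, read 5.63, 5.82, 5.38 and 5.32 in RORasg/sg and 5.37, 5.65, 5.57, 5.46 and 5.91 in WT (-0.055, SE 0.256). The 2 groups overlapped almost fully. The median deviation of the 4 subunits from the brighter WT hearts was 0.18, -1.71, -2.71 and -3.01 in RORasg/sg hearts 1 to 4 and -0.76 in WT 4. The cardiomyocyte markers deviated by 0.00034, -0.50, -2.27 and -1.81 in the same RORasg/sg hearts and by 0.16 in WT 4, and their part in the complex II values was not tested.

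**Figure D3:**
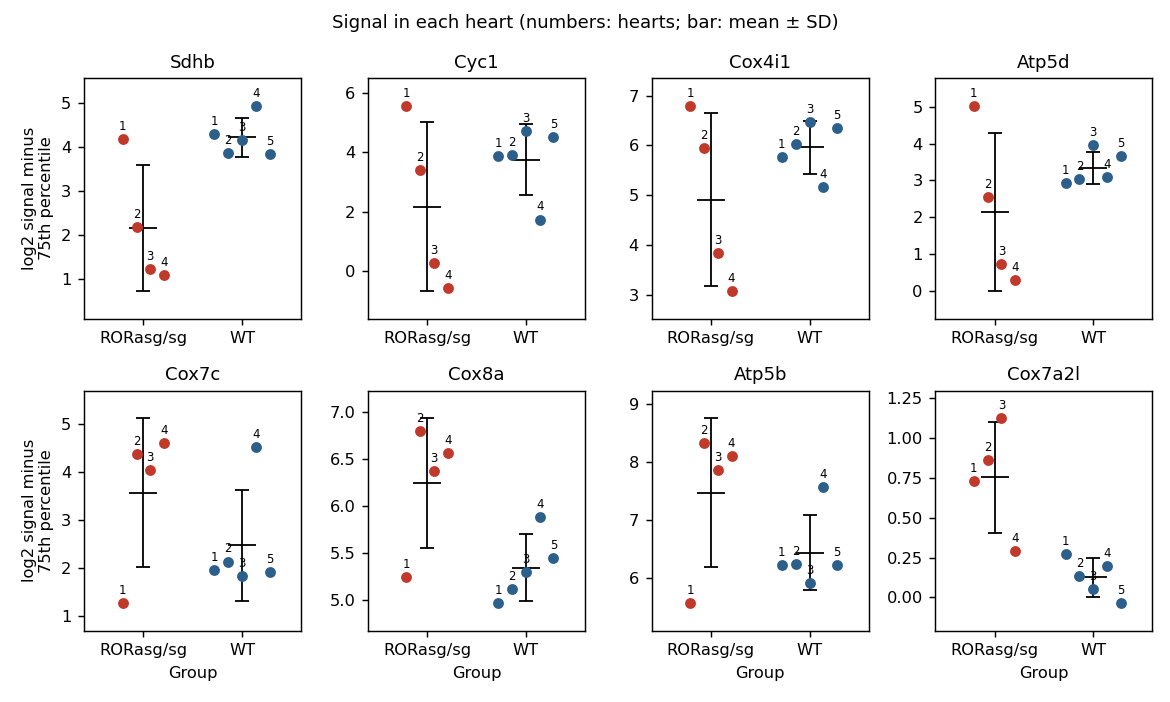
Signal in each heart (log2 minus the 75th percentile of the array) for 8 members, RORasg/sg left and WT right, with heart numbers and the mean ± SD of each group. For Sdhb, Cyc1, Cox4i1 and Atp5d, RORasg/sg 1 stands above the other RORasg/sg hearts; for Cox7c, Cox8a and Atp5b it stands below them. For Cox7a2l the 4 RORasg/sg hearts lie above the 5 WT hearts on this scale, but not in the deposited signal.

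With the brightest probe of each gene, Cyc1 stood apart from most other subunits of complex III. Cyc1, the cytochrome c1 that hands electrons to cytochrome c, read 5.56, 3.42, 0.27 and -0.57 in RORasg/sg hearts and 3.89, 3.92, 4.73, 1.74 and 4.52 in WT hearts. RORasg/sg 1 was the highest of the 9 hearts and RORasg/sg 3 and 4 were the lowest, with WT 4 next above them. The difference of -1.59 (SE 1.10, limma adjusted p = 0.435) was 0.59 within slide 1 and -3.38 within slide 2. Of the 8 other subunits, 7 had a higher mean in RORasg/sg hearts and 1 (Uqcr11, -0.061) a lower one. Uqcrc1, a core subunit on the matrix side, read 4.51, 7.07, 5.99 and 6.51 in RORasg/sg and 4.90, 4.94, 4.96, 5.74 and 5.06 in WT (0.90, SE 0.455, limma adjusted p = 0.418). Uqcrfs1, the Rieske iron-sulphur subunit, read 4.99, 7.12, 6.80 and 7.14 in RORasg/sg and 5.41, 5.59, 5.24, 6.82 and 5.72 in WT (0.76, SE 0.471). For both genes RORasg/sg 1 was the lowest of the 9 hearts. Uqcrc1 differed by 0.87 within slide 1 and 0.91 within slide 2, but its second probe gave -0.79 over all hearts. Uqcrh, the hinge subunit, had 0.14 (SE 0.269), and its second probe -0.43. Uqcrb, Uqcrc2, Uqcr10 and Uqcrq lay between 0.20 and 0.70.

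Cycs, the gene of somatic cytochrome c, read 5.88, 7.48, 6.88 and 7.02 in RORasg/sg hearts and 6.01, 6.24, 6.30, 6.67 and 6.36 in WT hearts (0.50, SE 0.314, limma adjusted p = 0.423). RORasg/sg 1 was the lowest heart and the other RORasg/sg hearts were above all WT hearts. In deposited signal RORasg/sg 4 (34250 units) was the lowest heart, and only RORasg/sg 2 (52180 units) was above all WT hearts. Its 3 probes gave 0.50, 0.94 and 0.998.

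In complex IV, 13 of the 16 tested subunits had a higher mean in RORasg/sg hearts and 3 a lower one (Cox4i1, Cox6b1 and Cox6b2). Against the median of all genes, 10 lay above and 6 below. Cox8a, a small membrane subunit, had the smallest p of the complex. It read 5.25, 6.80, 6.37 and 6.57 in RORasg/sg hearts and 4.97, 5.12, 5.30, 5.89 and 5.45 in WT hearts. RORasg/sg 2, 3 and 4 were above all WT hearts, and RORasg/sg 1 was inside the WT range. In deposited signal RORasg/sg 1, 2 and 3 were above all WT hearts, and RORasg/sg 4 (25040 units) was inside the WT range. The log2 difference was 0.90 (SE 0.349, limma adjusted p = 0.418), 1.87-fold, with 0.98 within slide 1 and 0.87 within slide 2. Cox7b, on the X chromosome, read 5.20, 7.40, 7.05 and 7.33 in RORasg/sg and 5.51, 5.75, 5.61, 6.77 and 5.70 in WT (0.88, SE 0.451). Cox7c had the highest difference of all members, 1.09 (SE 0.754, limma adjusted p = 0.434). It read 1.27, 4.36, 4.03 and 4.60 in RORasg/sg and 1.95, 2.14, 1.84, 4.52 and 1.91 in WT. WT 4 stood among RORasg/sg 2, 3 and 4 for Cox7c, and RORasg/sg 1 was the lowest heart. Cox5a and Cox5b, which sit around the catalytic core, had 0.52 (SE 0.367) and 0.13 (SE 0.245), and Cox6c had 0.58 (SE 0.350).

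Cox7a2l, a relative of Cox7a, was the single member whose groups did not overlap after scaling. It read 0.73, 0.87, 1.12 and 0.29 in RORasg/sg hearts and 0.27, 0.14, 0.056, 0.20 and -0.036 in WT hearts. All 4 RORasg/sg hearts lay above all 5 WT hearts on this scale. In deposited signal it read 1285, 532, 851 and 324 units in RORasg/sg and 827, 706, 656, 499.5 and 533 in WT, where the groups overlapped and RORasg/sg 4 was the lowest of the 9 hearts. The gap between the lowest RORasg/sg and the highest WT heart was small, and the mean was 0.75 ± 0.35 in RORasg/sg (SD, n = 4) and 0.13 ± 0.12 in WT (SD, n = 5). The difference of 0.63 (SE 0.391, limma adjusted p = 0.422) is 1.55-fold and lies 0.22 above the median of all genes. Groups did not overlap upwards for 1.12% of all genes and downwards for 1.71%, against 1 and 0 of the 47 members. Within slides 1 and 2 it was 0.59 and 0.58, in the brighter arrays 0.63, in the dimmer arrays 0.57 and without scaling 0.057. Cox4i1, the main form of subunit 4, had a negative difference. It read 6.79, 5.95, 3.83 and 3.08 in RORasg/sg and 5.76, 6.04, 6.47, 5.16 and 6.36 in WT (-1.05, SE 0.661, limma adjusted p = 0.423), with RORasg/sg 1 above every WT heart and RORasg/sg 3 and 4 below every one. Within slide 1 it differed by 0.47 and within slide 2 by -2.36.

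The heart and muscle forms of complex IV subunits were set against their partners within each heart, which removes any scaling by a constant. Cox6a2, the heart and muscle form of subunit 6a, had a log2 difference of 0.47 (SE 0.313), which turned to -0.097 without scaling, and Cox6a1, the widely expressed form, had 0.55 (SE 0.329), which turned to -0.022. The deposited signal of Cox6a2 was 128200, 148800, 151600 and 121000 units in RORasg/sg hearts and 144600, 143500, 144000, 157200 and 142800 in WT hearts. Their log2 ratio was 1.64, 2.30, 3.02 and 3.21 in RORasg/sg hearts and 2.63, 2.75, 2.60, 2.45 and 2.67 in WT hearts. The RORasg/sg hearts lay on both sides of the WT hearts, and the difference of -0.075 had an exact two-sided permutation p of 0.857. Cox8b, the heart and muscle form of subunit 8, and Cox8a had 0.90 each (SE 0.463 and 0.349). Their log2 ratio was 0.58, 1.29, 1.33 and 1.52 in RORasg/sg and 1.21, 1.12, 0.93, 1.64 and 0.99 in WT, a difference of 0.0010 (exact permutation p = 0.984). A difference near 0 with this spread does not show that the ratio was the same in both groups.

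The pair Cox7a1 (heart and muscle form) and Cox7a2 (widely expressed form) had the largest gap relative to its spread. Cox7a1 read 6.61, 7.495, 6.66 and 6.85 in RORasg/sg hearts and 6.41, 6.47, 6.58, 7.79 and 6.82 in WT hearts (0.089, SE 0.320). Cox7a2 read 5.09, 7.83, 7.46 and 7.63 in RORasg/sg and 5.62, 5.77, 5.51, 7.70 and 5.82 in WT (0.92, SE 0.591). Their log2 ratio was 1.52, -0.33, -0.80 and -0.78 in RORasg/sg and 0.80, 0.69, 1.07, 0.091 and 0.9999 in WT. RORasg/sg 2, 3 and 4 were below all WT hearts and RORasg/sg 1 was above all of them, and WT 4 was the lowest WT heart. The difference was -0.83 (exact two-sided permutation p = 0.159, Benjamini-Hochberg 0.794 over 5 pairs; the smallest p this design allows is 0.0159). Within slide 1 it was -0.15 and within slide 2 -1.37. Without RORasg/sg 1 it was -1.37 (exact permutation p = 0.0357, not adjusted). That p is the smallest possible once this heart is left out, because the remaining RORasg/sg hearts all lay below the WT hearts. It therefore adds nothing to the positions given above.

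The last 2 pairs hold a form that is minor in heart. Cox4i2 is known as the lung and hypoxia form of subunit 4. It read -3.28, -3.40, -2.75 and -1.03 in RORasg/sg and -2.45, -2.92, -3.08, -1.38 and -3.59 in WT (0.069, SE 0.599). Its log2 ratio to Cox4i1 differed by 1.12 (exact permutation p = 0.476). Cox6b2, the testis form of subunit 6b, had -0.64 (SE 0.586), and Cox6b1, the widely expressed form, had -0.53 (SE 0.598). Their ratio differed by -0.11 (exact permutation p = 0.810). After adjustment over the 5 pairs the lowest p of the pairs was 0.794. Of the members too dim to test, Cox7b2, a testis form of subunit 7b, passed background on 2 RORasg/sg arrays and on 0 WT arrays. Cox8c, a testis form of subunit 8, was above background in 1 WT heart.

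**Figure D4:**
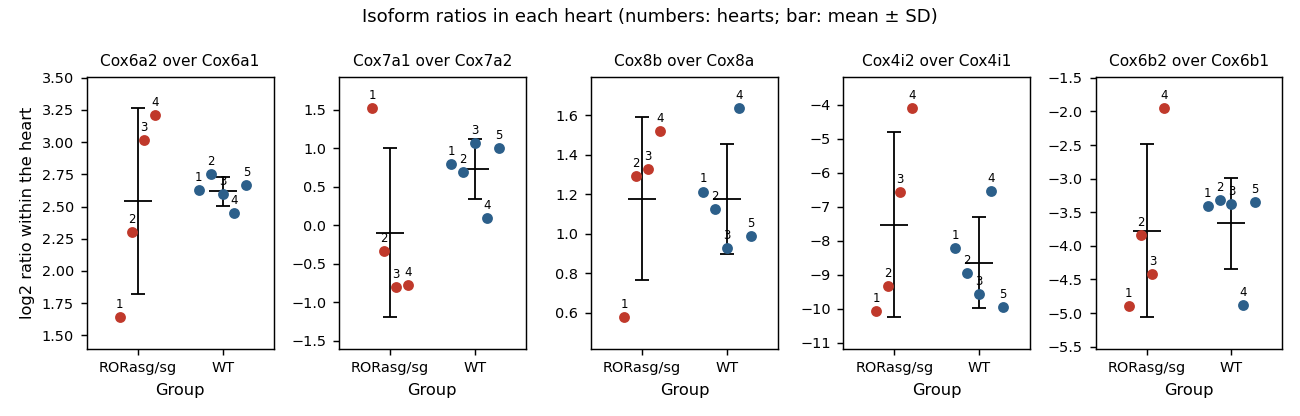
Log2 ratio of the 2 forms of each of 5 complex IV subunits within each heart, RORasg/sg left and WT right, with heart numbers and the mean ± SD of each group. For Cox7a1 over Cox7a2, RORasg/sg 2, 3 and 4 lie below the WT hearts and RORasg/sg 1 above them; the groups overlap in all 5 panels.

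Complex V held 17 members, 10 with a higher and 7 with a lower mean in RORasg/sg hearts, but 7 above and 10 below the median of all genes. Its differences ran from -1.19 to 1.04. Atp5b, the catalytic beta subunit, read 5.58, 8.34, 7.87 and 8.12 in RORasg/sg hearts and 6.23, 6.24, 5.93, 7.58 and 6.23 in WT hearts (1.04, SE 0.531, limma adjusted p = 0.418). RORasg/sg 1 was the lowest of the 9 hearts, and the other RORasg/sg hearts were above all WT hearts. In deposited signal RORasg/sg 4 (73260 units) lay below WT 4 (83150 units). The difference was 0.72 within slide 1 and 1.24 within slide 2. Atp5d, the delta subunit of the central stalk, was at the other end with -1.19 (SE 0.807, limma adjusted p = 0.432). It read 5.02, 2.54, 0.73 and 0.30 in RORasg/sg and 2.94, 3.05, 3.96, 3.09 and 3.65 in WT, so RORasg/sg 1 was above and RORasg/sg 2, 3 and 4 below every WT heart. Within slide 1 Atp5d had 0.79 and within slide 2 it had -3.01. Atp5a1, the alpha subunit that alternates with beta in the catalytic head, had -0.027 (SE 0.212). Atp5mpl, a small membrane subunit, read 6.73, 8.34, 7.97 and 8.24 in RORasg/sg and 6.96, 6.98, 7.08, 7.79 and 7.25 in WT (0.61, SE 0.330). Atp5pb, of the peripheral stalk, had no value in WT 1, and its difference of 0.26 rests on 4 hearts of each group. The other 9 members apart from subunit c lay between -0.15 (Atp5l) and 0.80 (Atp5j).

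The 3 genes of subunit c, which forms the rotating ring and has the same mature protein from each gene, were chosen for naming after their values were seen. Atp5g1 read 4.76, 2.70, 1.57 and 0.20 in RORasg/sg hearts and 2.69, 2.71, 3.55, 2.27 and 3.54 in WT hearts (-0.64, SE 0.758). Atp5g2 read 5.49, 4.26, 3.51 and 3.76 in RORasg/sg and 4.31, 4.62, 4.88, 4.35 and 4.98 in WT (-0.37, SE 0.416). Atp5g3 read 4.60, 6.62, 6.22 and 6.68 in RORasg/sg and 5.10, 5.09, 4.87, 6.31 and 5.23 in WT (0.71, SE 0.454). RORasg/sg 1 was the highest heart for Atp5g1 and Atp5g2 and the lowest for Atp5g3, while RORasg/sg 3 and 4 were the lowest for Atp5g1 and Atp5g2. For Atp5g3, RORasg/sg 3 was above 4 of the 5 WT hearts and RORasg/sg 4 above all 5. None of the 3 differences passed the threshold, and differences between the 3 genes were not tested.

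For several members, probes of the same gene gave different answers. Atp5b has 3 probes, with log2 differences of 1.04, -1.60 and 0.016. The second of them read 5.72, 3.15, 0.91 and 1.49 in RORasg/sg hearts and 4.47, 3.94, 4.63, 4.66 and 4.38 in WT hearts, so it moved against the first in RORasg/sg 2, 3 and 4. The third stayed between 1.95 and 2.95 in all hearts. The 2 probes of Uqcrc1 gave 0.90 and -0.79, those of Uqcrh 0.14 and -0.43, and those of Atp5a1 -0.027 and 0.73. The probes of Sdha agreed in sign but not in size, with -1.52 and -0.36, while those of Cox7a2 (0.92 and 0.89) lay within 0.027 of each other. Of the 9 members with several probes, 4 had probes of opposite sign. The direction given for Uqcrc1, Uqcrh and Atp5a1 therefore holds for 1 of 2 probes, and that for Atp5b for 2 of 3, 1 of them near 0. For the 38 tested members with a single probe there is no such check. Probe positions along the transcripts were not analysed here.

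**Figure D5:**
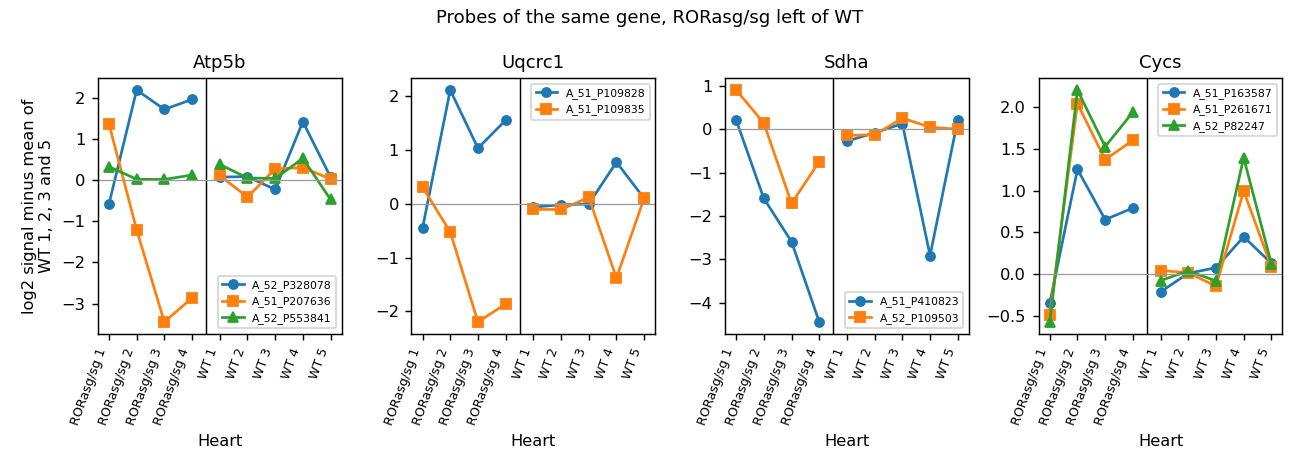
Log2 deviation of each probe from its own mean in WT 1, 2, 3 and 5, by heart, for 4 genes with several probes (lines only join values of 1 probe). Probes of Atp5b and Uqcrc1 move in opposite directions in RORasg/sg 2, 3 and 4, and the 3 probes of Cycs move together.

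The calls depended on RORasg/sg 1. Without it, limma called 23 of the 47 members (18 higher, 5 lower), 48.9% against 37.4% of all genes (28.5% higher, 8.89% lower). The 5 lower were Sdhb (-2.73, adjusted p = 0.00317), Sdhc (-2.32, adjusted p = 0.0126), Cyc1 (-2.72, adjusted p = 0.0486), Atp5d (-2.15, adjusted p = 0.0181) and Atp5g2. Among the 18 higher were Cox8a (1.23, adjusted p = 0.0102), Cox7b (1.39, adjusted p = 0.0120), Atp5b (1.67, adjusted p = 0.0120) and Cycs (0.81, adjusted p = 0.0187). In that comparison all 3 RORasg/sg hearts were dimmer arrays and 4 of the 5 WT hearts were brighter ones. In the 5 brighter arrays, where RORasg/sg 1 is the lone RORasg/sg heart, 4 members were called (8.51% against 4.28% of all genes, 1.29% higher and 2.99% lower): Atp5d (1.62), Atp5g1 (1.64) and Cox6b1 (1.22) higher and Atp5j (-0.68) lower. There the spread comes from the 4 WT hearts alone, and RORasg/sg 1 is assumed to vary like them, so these calls set 1 RORasg/sg heart against WT hearts. The 2 members called both ways, Atp5d and Atp5j, had opposite signs in the 2 comparisons. In the 4 dimmer arrays, with WT 4 as the lone WT heart and the spread taken from the 3 RORasg/sg hearts, 0 members were called, as of all genes. Sdhb differed there by -3.43 (adjusted p = 0.670), the same direction as in all 9 hearts, but by 0.14 in the brighter arrays. With array weights estimated by limma, 35 members were called (25 higher, 10 lower), 74.5% against 54.5% of all genes (37.8% higher, 16.7% lower), and RORasg/sg 1 had the lowest weight.

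Assembly factors insert cofactors or join subunits but are not part of the finished enzyme. A list of such factors and related genes (the latter including Cyct, Lrpprc, Taco1 and Fastkd1) gave 40 tested genes of 42. Their median log2 difference was -0.013, with 19 higher and 21 lower means, and 0 passed the threshold. Without adjustment, 3 were lower at p under 0.05 and 0 were higher, against 6.62% and 4.94% of all genes. Cox19, which takes part in copper supply to complex IV, had -1.82 (SE 0.547, limma adjusted p = 0.375). All its RORasg/sg hearts lay below its WT hearts, as for 1 of the 40 tested genes of the list and 1.71% of all genes. Tmem70, needed for assembly of ATP synthase, had -1.76 (SE 0.617, limma adjusted p = 0.401). Lyrm7, which delivers the Rieske subunit to complex III, had -1.56 (SE 0.686, limma adjusted p = 0.418). Its probe was dim, with a mean level of -5.82 in RORasg/sg and -4.26 in WT. It was not above background on all arrays, and the difference was 0.044 with normexp background and 0.036 in the dimmer arrays.

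Complex I, the most similar group, had a median log2 difference of 0.17 over 37 Nduf subunits (range -2.34 to 0.95), against 0.34 over the members. Of the complex I subunits, 25 lay below the median of all genes and 12 above it. Whether the members differ from complex I was not tested. The tenth of genes with the highest mean level had a median of 0.26. Cox5a, Cox7a2 and Sdhd lie on chromosome 9 within 20 Mb of Rora, and their log2 differences were 0.52, 0.92 and -0.055, none past the threshold.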

How the data were processed

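Total RNA of whole hearts was amplified (NuGEN Ovation Pico WTA) and labelled with Cy3, per the labels' protocols. Per the file headers, the array design was 014868 with grid build mm9, and spots were quantified by Feature Extraction 12.0.0.7 (protocol GE1_1200_Jun14). Agilent Feature Extraction 12 is also the tool in the submitters' processing notes. The deposited intensity of a spot is the scanner software's processed signal, on a linear scale after background subtraction and without scaling across arrays. A value table deposited by the authors held identical intensity for all 45018 features.

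Control spots (leaving 43379 of 45018) and 758 flagged outlier spots were removed, 0 were saturated, and spots of a probe were averaged. Values are log2 signal minus the 75th percentile of the array. A probe was kept if it passed the background test on 4 or more of the 9 arrays (36405 of 41174), with 1 probe per gene (27775 genes). Accessions were named through RefSeq's GRCm38.p6 list (28223 probes), and an accession without a symbol was counted as a gene of its own. limma 3.58.1 in R 4.3.3 (lmFit and eBayes with trend) compared the groups over all 9 arrays, with Benjamini-Hochberg adjustment over all genes and a threshold of 0.05. Isoform ratios were compared by exact permutation. The package data.table (version 1.17.8) read the files, and matplotlib 3.10.9 in Python 3.11.15 drew the figures. The scripts were tested on simulated data. Hearts came from separate mice, p-values measure the spread between these hearts, and precision is limited by the number of arrays.

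RORasg/sg 1 and 2 shared slide 1 with WT 1 and 2, RORasg/sg 3 and 4 shared slide 2 with WT 3 and 4, and WT 5 was on slide 3. No 2 arrays correlated above 0.977. The text names, in each complex, the members with the lowest and highest difference and the 2 smallest p-values, both genes of each isoform pair, members without overlap or not kept, those with probes of opposite sign, and assembly factors by smallest p. The members, lists and alternatives were chosen with earlier results of these data known. Alternatives were other scalings, normexp background (offset 50), filters, the mean of a gene's probes, slide and replicate number as blocks, single slides, array weights, eBayes without trend, brightness as a covariate, the brighter or dimmer arrays (limit 500), and leaving out each array.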

Additional observations from a re-analysis of the deposited data

Results flagged for a closer look

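Within each group, a heart counted as standing apart when its gap to the nearest other heart, divided by the range of the group, passed Dixon's critical value. Of 114 groups of values tested, 31 had such a heart. Chance flags about 1 in 20 groups when the groups are independent. These groups were not independent, because members, ratios and medians were all read from the same hearts. The share flagged over all genes was not counted, so the 31 cannot be set against chance and are not shown to be particular to the members. WT 4 was the high heart in 22 of the 31 groups and the low one in 3. RORasg/sg 1 was low in 5 and RORasg/sg 2 high in 1.

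RORasg/sg 1 lay below the other RORasg/sg hearts for Atp5b (5.58), Cox7a2 (5.09), Cox7b (5.20), Cox7c (1.27) and Uqcrfs1 (4.99). RORasg/sg 2 lay above the others for Cox6a1 (6.69).

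WT 4 lay above the other WT hearts for 5 complex III subunits, Uqcr10 (7.94), Uqcrb (8.20), Uqcrc1 (5.74), Uqcrc2 (7.58) and Uqcrq (7.55). It did so for 6 complex IV subunits, Cox5a (7.34), Cox6c (6.78), Cox7a2 (7.70), Cox7b (6.77), Cox7c (4.52) and Cox8b (7.53). In complex V it did so for Atp5b (7.58), Atp5c1 (6.70), Atp5e (8.28), Atp5g3 (6.31), Atp5h (7.97), Atp5j (7.53) and Atp5md (7.08). The median levels of all members (6.78), complex III (7.55), complex IV (6.41) and complex V (7.08) were high in WT 4 too. The same heart was low for Cyc1 (1.74), Sdha (1.40) and the log2 ratio of Cox6b2 over Cox6b1 (-4.88). WT 4 was the only dimmer array among the WT hearts, and the part of brightness in these values was not tested.

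Cox7b2, a member outside the comparison because it was too dim, was well above background on 2 RORasg/sg arrays and 0 WT arrays. It read -7.68, -1.75, -4.22 and -5.47 in RORasg/sg hearts and -7.02, -7.78, -7.20, -6.55 and -5.55 in WT hearts.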

How the results depend on the processing

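No member was called under 22 of 25 alternatives, with a lowest adjusted p of 0.172 (within slide 2) to 1 (brightness as a covariate) among them. The exceptions were array weights (35 members, 25 higher and 10 lower, against 54.5% of all genes), the 5 brighter arrays (4) and leaving out RORasg/sg 1 (23). The array weights were 0.101, 0.332, 1.69 and 0.528 for RORasg/sg hearts 1 to 4 and 2.60, 4.54, 3.14, 0.325 and 2.78 for WT hearts 1 to 5. Among all genes, 1 was called, against 2 with quantile normalization, 3 without scaling, 15132 with array weights, 1189 in the 5 brighter arrays, and 0 with normexp background, probes above background on all arrays, the mean of a gene's probes, slide as a block, within slide 1, within slide 2 and in the 4 dimmer arrays. The cause of these changes was not tested. Signs were followed for part of the members and for Cox19, Tmem70 and Lyrm7. Among these genes, Cox7a2l, Cox8a, Cox19 and Tmem70 kept their sign under all 25 alternatives.

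The median of the members was -0.23 without scaling and -0.27 in the 5 brighter arrays. The median of complex II was -0.25 within slide 1, -2.59 with array weights, -0.040 with the brightness covariate, and 0.18 in the 5 brighter arrays. Complex III had -0.45 in the 5 brighter arrays. Complex V had -0.11 with quantile normalization, -0.25 without scaling, -0.095 with the brightness covariate and -0.33 in the 5 brighter arrays. Complex IV had -0.037 without scaling, -0.13 with the brightness covariate, and -0.28 in the 5 brighter arrays, and Cycs had -0.073, -0.013 and -0.35 there. The turned signs given next are only those of the genes followed for sign and of the isoform ratios. Members not followed turned too, such as Atp5j (-0.68), Cox5a (-0.48) and Atp5l (0.78) in the 5 brighter arrays. With quantile normalization, the sign turned for Uqcrh (-0.40), Cox6a2 (-0.13) and Cox7a1 (-0.34), and for the ratio Cox8b over Cox8a (-0.078). Without scaling, the sign turned for Uqcrh (-0.43), Cycs (-0.073), Cox4i2 (-0.50), Cox6a1 (-0.022), Cox6a2 (-0.097) and Cox7a1 (-0.48). With normexp background, the sign turned for Cox7a1 (-0.032) and Lyrm7 (0.044), and for the ratio Cox6b2 over Cox6b1 (0.12). With the mean of a gene's probes, the sign turned for Uqcrh (-0.14), Atp5a1 (0.35) and Atp5b (-0.18). With slide as a block, the sign turned for Sdhd (0.024), Cox4i2 (-0.16) and Atp5a1 (0.014), and for the ratio Cox8b over Cox8a (-0.047). Within slide 1, the sign turned for Sdhc (0.024), Sdhd (0.21), Cyc1 (0.59), Cox4i1 (0.47), Cox4i2 (-0.65), Cox6b1 (0.83), Atp5a1 (0.098), Atp5d (0.79), Atp5g1 (1.03) and Atp5g2 (0.41), and for the ratio Cox8b over Cox8a (-0.23) and Cox4i2 over Cox4i1 (-1.12). Within slide 2, the sign turned for Uqcrh (-0.22), Cox6a1 (-0.039) and Cox7a1 (-0.43), and for the ratio Cox6a2 over Cox6a1 (0.59) and Cox6b2 over Cox6b1 (0.94). With brightness as a covariate, the sign turned for Cyc1 (0.16), Uqcrfs1 (-0.14), Uqcrh (-0.21), Cycs (-0.013), Cox4i2 (-0.49), Cox6a2 (-0.13), Cox6b1 (0.31), Cox7a1 (-0.27), Cox7a2 (-0.22), Cox7c (-0.30), Cox8b (-0.019), Atp5b (-0.016), Atp5d (0.037), Atp5g1 (0.56), Atp5g2 (0.13), Atp5g3 (-0.13) and Atp5mpl (-0.012). In the 5 brighter arrays, the sign turned for Sdha (0.21), Sdhb (0.14), Sdhc (1.13), Sdhd (0.0057), Cyc1 (1.30), Uqcrc1 (-0.45), Uqcrfs1 (-0.50), Uqcrh (-0.16), Cycs (-0.35), Cox4i1 (0.63), Cox4i2 (-0.27), Cox6a2 (-0.47), Cox6b1 (1.22), Cox7a2 (-0.59), Cox7b (-0.44), Cox7c (-0.69), Cox8b (-0.45), Atp5b (-0.58), Atp5d (1.62), Atp5g1 (1.64), Atp5g2 (0.80), Atp5g3 (-0.47) and Atp5mpl (-0.34), and for the ratio Cox7a1 over Cox7a2 (0.63), Cox8b over Cox8a (-0.49) and Cox4i2 over Cox4i1 (-0.90). In the 4 dimmer arrays, the sign turned for Sdha (0.035), Sdhd (0.044), Uqcrh (-0.36), Cox4i2 (-1.01), Cox6a1 (-0.079), Cox6b2 (0.59), Cox7a1 (-0.79), Cox7a2 (-0.062), Cox7c (-0.19), Atp5a1 (0.082) and Lyrm7 (0.036), and for the ratio Cox6a2 over Cox6a1 (0.40), Cox8b over Cox8a (-0.26), Cox4i2 over Cox4i1 (-0.14) and Cox6b2 over Cox6b1 (1.47).

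Leaving out single hearts gave 0 to 23 members and 0 to 10391 genes past the threshold, and a member median of 0.24 to 0.57. The medians ran from -2.31 to -0.83 in complex II, 0.16 to 0.76 in complex III, 0.32 to 0.74 in complex IV, 0.034 to 0.49 in complex V and 0.28 to 0.81 for Cycs, and the ratios from -0.30 to 0.23 for Cox6a2 over Cox6a1, -1.37 to -0.60 for Cox7a1 over Cox7a2, -0.11 to 0.20 for Cox8b over Cox8a, -0.022 to 1.96 for Cox4i2 over Cox4i1 and -0.72 to 0.26 for Cox6b2 over Cox6b1. Signs were again followed only for part of the members. Atp5h (0.084) and Atp5e (0.12), which were not followed, turned positive without RORasg/sg 1. Among the followed members whose sign turned, the differences ran from -0.15 to 0.024 for Sdhd, -0.054 to 0.30 for Uqcrh and -0.46 to 0.40 for Cox4i2. The differences ran from -1.14 to 0.013 for Cox6b1, -0.11 to 0.33 for Cox7a1, -0.19 to 0.061 for Atp5a1 and -1.46 to 0.060 for Atp5g1. Among those that kept their sign, they ran from -2.29 to -0.74 for Sdha, -2.32 to -0.92 for Sdhc, -2.72 to -0.67 for Cyc1, -1.67 to -0.44 for Cox4i1 and -2.15 to -0.57 for Atp5d, each lowest without RORasg/sg 1 and highest without RORasg/sg 4. The ranges were 0.55 to 1.41 for Uqcrc1, 0.55 to 1.27 for Uqcrfs1, 0.29 to 0.72 for Cox6a1, 0.29 to 0.83 for Cox6a2, -1.01 to -0.20 for Cox6b2, 0.64 to 1.56 for Cox7a2, 0.66 to 1.39 for Cox7b, 0.75 to 1.86 for Cox7c, 0.68 to 1.43 for Cox8b, 0.75 to 1.67 for Atp5b, -0.79 to -0.12 for Atp5g2, 0.50 to 1.19 for Atp5g3, 0.44 to 0.98 for Atp5mpl and -2.30 to -1.16 for Tmem70. Without WT 4, 15 members had an unadjusted p under 0.05 in limma, against 2 with all hearts, and 0 members and 0% of all genes passed the threshold. The share of all genes with an unadjusted p under 0.05 was not counted without WT 4, so the rise is not shown to be particular to the members.

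Same-numbered hearts correlated at 0.046, -0.0069, -0.33 and 0.39 in their deviations. The WT heart that correlated best with RORasg/sg 1 to 4 was number 3, 5, 4 and 4. These values cannot settle whether the replicate numbers pair the hearts, because RORasg/sg 1 and WT 4 stood apart within their groups. With the replicate block, 0 members and 9 genes were called, and the sign turned for Sdhd (0.024), Cox4i2 (-0.16) and Atp5a1 (0.014) and the ratio Cox8b over Cox8a (-0.047). Signal over background did not limit the 47 tested members. It left Cox7b2 and Cox8c without a test.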

Other observations

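Among the 6 members with AGGTCA in the promoter window, the log2 difference was -2.05 for Sdhb, -0.15 for Atp5l, 0.13 for Cox5b, 0.71 for Atp5g3 and 0.88 for Cox7b, and Cox7b2 was too dim to test. Their differences thus lay on both sides of 0 and of the median of all genes. The 7 members with the NRF-1 motif were Atp5c1 (0.67), Atp5g2 (-0.37), Atp5h (-0.072), Atp5k (0.48), Cox6a1 (0.55), Sdha (-1.52) and Sdhd (-0.055). None of these members passed the threshold in limma, and no relation between motif and difference was tested.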
